A study of Mus musculus with 3 samples.

Results

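Foxi1, Foxj1, Spib, Grhl1 and Foxa1 are transcription factors that direct specialised epithelial lineages outside the thymus, and mimetic thymic epithelial cells use such factors. These 5 genes, of 32285 in the deposited count table, were read in every cell with at least 1 unique molecular identifier (UMI, 1 counted RNA molecule) of Epcam, an adhesion molecule of epithelial cells. Such cells, called epithelial below, numbered 2581 of the 8392 cells kept. Single-cell RNA was sequenced from 1 droplet lane with a 5-prime kit, into which 2 pools of wild-type mouse thymus cultures were loaded on culture day 13. ORFTOC, the organoid reaggregate fetal thymic organ culture, was built from thymic epithelial cells (TECs) that had been grown as organoids (donor thymi of E16.5), from cells of E13.5 thymi after removal of EpCAM-positive cells, and from mouse embryonic fibroblasts. FTOC, the fetal thymic organ culture, was the intact lobe of E13.5 thymi. The mice were C57BL/6J, and both cultures received the same medium with FGF7. Each pool was a mixture of 2 cultures that shared 1 hashtag, an antibody with an oligonucleotide barcode, so each pool counts as 1 sample and there are no replicates.

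Medullary TECs display proteins of peripheral tissues to developing T cells, so that self-reactive cells can be deleted or diverted. Aire, a nuclear regulator, drives part of this expression. Mimetic cells are medullary TECs that take on much of the programme of a peripheral cell type, such as a tuft, ciliated, microfold or keratinocyte-like cell, under the factor that rules that lineage elsewhere. Foxi1 directs ionocytes and other proton-secreting cells, Foxj1 the formation of motile cilia, Spib (together with Sox8) the microfold cells that sample antigen over lymphoid tissue, Grhl1 the differentiation of the epidermis, and Foxa1 the endodermal epithelia of airway and gut.

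The epithelial cells of ORFTOC numbered 1449 (19852257 UMIs, median 13011 per cell) and those of FTOC 1132 (14073973 UMIs, median 11663.5 per cell). Krt8 and Krt18, keratins of simple epithelia, were detected in 89.8% and 90.1% of the epithelial cells, against 7.08% and 9.99% of 4436 immune cells (no Epcam UMI and at least 1 of Ptprc, which encodes CD45). Ptprc was also detected in 375 of the 2581 epithelial cells (14.5%), and 199 (7.71%) shared their barcode with a T cell receptor β chain, against 62.6% of the immune cells. Among the 12 clusters of epithelial cells, clusters 6, 7 and 10 were led by lymphocyte or macrophage genes with Ptprc in 76.0 to 91.4% of cells, and cluster 12 by collagen genes. The Y-linked gene Eif2s3y gave 812 UMIs in ORFTOC epithelial cells and 0 in those of FTOC, so sex-linked expression and the culture type cannot be told apart. Each pool was compared by counts, with no test and no p-value, and all intervals are 95% and cover counting error only. Intervals of summed levels and their ratios count UMIs and not cells, so they leave out the spread between cells. Where shares depend on depth, cells were also thinned at random to 3000 UMIs each, which left out 57 ORFTOC and 81 FTOC cells.

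With all UMIs, at least 1 of the 5 genes was detected in 704 ORFTOC epithelial cells (48.6%) and in 333 of FTOC (29.4%). This joint share was not taken at matched depth. Of the 5 genes, Foxa1 differed most, with 24.6% in ORFTOC and 8.66% in FTOC. Foxa1 was the single member of 5 past a 2-fold ratio of summed levels, given as the UMIs of a gene per 1000000 UMIs of the same cells (CPM). Of all 15409 genes with at least 20 UMIs in epithelial cells, 5.92% were at least 2-fold higher in ORFTOC and 6.30% at least 2-fold lower. No member was 2-fold lower in ORFTOC, although Foxj1, at a ratio of 0.521, was at 0.498 when doublets within a pool were kept. In the immune cells, whose median depth was 5072.5 UMIs against 12393 in epithelial cells, the members were detected in 0.0451 to 0.361% of cells. At 3000 UMIs per cell these shares were 0 to 0.142% in immune cells and 0.860 to 7.53% in epithelial cells. Whether the counts in immune cells came from free RNA in the droplets was not tested.

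**Figure D1:**
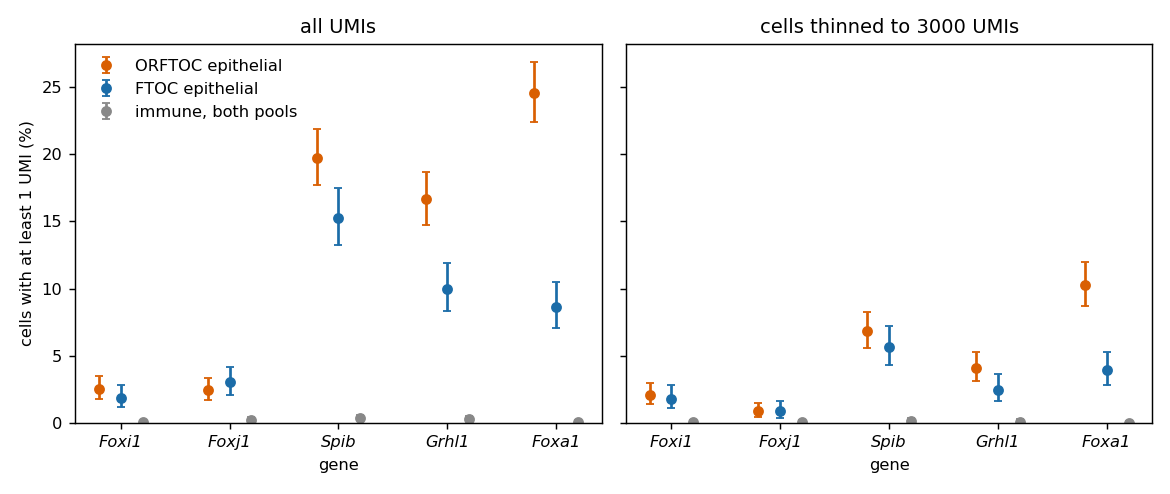
Share of epithelial cells with at least 1 UMI (percent, y axis) for each gene (x axis) in ORFTOC, in FTOC and in immune cells of both pools, with all UMIs (left) and with cells thinned to 3000 UMIs (right). Bars are 95% Clopper-Pearson intervals; the Foxa1 intervals of the 2 pools do not overlap in either panel.

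Foxi1, the ionocyte factor, marked a small and sharply separate set of cells in both pools. It was detected in 37 ORFTOC cells (2.55%, interval 1.80 to 3.50) and in 21 FTOC cells (1.86%, 1.15 to 2.82). The summed level was 20.9 CPM in ORFTOC and 18.9 CPM in FTOC, a ratio of 1.11 (0.946 to 1.30). The pools therefore did not differ beyond counting error. A positive cell held a median of 9 UMIs of Foxi1 in either pool, with a maximum of 56 in ORFTOC and 58 in FTOC. Of the 58 positive cells, 52 held at least 2 UMIs, and the immune cells with Foxi1 held 1 each in 2 of 4436 cells. The level in barcodes of at most 100 UMIs, a measure of free RNA, was 4.27 CPM.

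The gene lies on chromosome 11 of mm10 (34204341 to 34208089, RefSeq GRCm38.p6). The 250 bases before its listed start (minus strand, chr11:34208090-34208339), shown because Foxi1 and Foxa1 were found together in many cells, held neither the forkhead letters TGTTTAC, nor the Grainyhead-like letters AACNNGTT, nor the Ets letters GAGGAAGT, on either strand. No letters of it are therefore in capitals.
Foxi1: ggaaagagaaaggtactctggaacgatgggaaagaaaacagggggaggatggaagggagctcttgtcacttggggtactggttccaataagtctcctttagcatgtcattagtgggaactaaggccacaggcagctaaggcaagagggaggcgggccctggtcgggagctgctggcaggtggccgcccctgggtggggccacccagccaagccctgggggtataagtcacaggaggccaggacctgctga
Of 32851 such windows in the RefSeq table, 3.17% held the forkhead letters, 3.64% the Grainyhead-like and 2.44% the Ets letters. Windows were found for 4 of the 5 members, and Foxj1 was not among them.

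Foxi1-positive cells carried the genes of proton- and chloride-transporting cells. The ionocyte list summed to 1915 CPM in the 58 positive cells and to 44.3 CPM in the other 2523. Of its 11 genes, 8 were detected in at least 20 epithelial cells, and all 8 of these had a share in Foxi1-positive cells at least 2 times that in Foxi1-negative cells, against 10.5% of all 14774 genes tested. The median ratio of shares was 46.8 for the list and 1.08 for all genes. Ascl3, a helix-loop-helix factor of ionocytes and salivary duct cells, was detected in 72.4% of positive and 0.793% of negative cells. The chloride channel subunit Bsnd was detected in 51.7% and 0.159%. The proton pump subunits Atp6v1b1 and Atp6v0d2 were detected in 74.1% and 53.4% of positive cells, against 11.3% and 0.555% of negative cells. Cftr, the chloride channel of cystic fibrosis, was detected in 65.5% and 12.2%. At 3000 UMIs Ascl3 was detected in 64.6% of positive and 0.376% of negative cells and Cftr in 29.2% and 5.01%.

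The genes whose log values followed Foxi1 most closely over the 2581 cells were Ascl3 (Pearson r = 0.85), the related forkhead gene Foxi2 (r = 0.81), the G protein subunit Gng4 (r = 0.75), the mucin Muc20 (r = 0.66), Smbd1 (r = 0.65), the noradrenaline transporter Slc6a2 (r = 0.62), Bsnd (r = 0.62) and Rcan2 (r = 0.62). These values come from the same cells and libraries and describe likeness only. Cluster 9, led by Foxi1, Ascl3 and Foxi2, held 43 cells, and Foxi1, which was among the genes used for clustering, was detected in all 43. This cluster held 91.8% of all Foxi1 UMIs. It made up 1.93% of ORFTOC epithelial cells (28 cells, interval 1.29 to 2.78) and 1.33% of those of FTOC (15 cells, 0.743 to 2.18). The other 15 Foxi1-positive cells held a median of 3 UMIs, against 11 within the cluster, and Ascl3 was detected in 1 of these 15 and in 41 of the 43. In cluster 11 the share was 7.41% (2 of 27 cells, interval 0.910 to 24.3) and in cluster 8 it was 2.17% (2 of 92, 0.264 to 7.63), and these neighbours in the order did not differ beyond counting error. No Foxi1 UMI was found in the 368 cells of cluster 3, which allows a share of cells with a UMI of up to 0.815% (3 counts of the total).

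**Figure D2:**
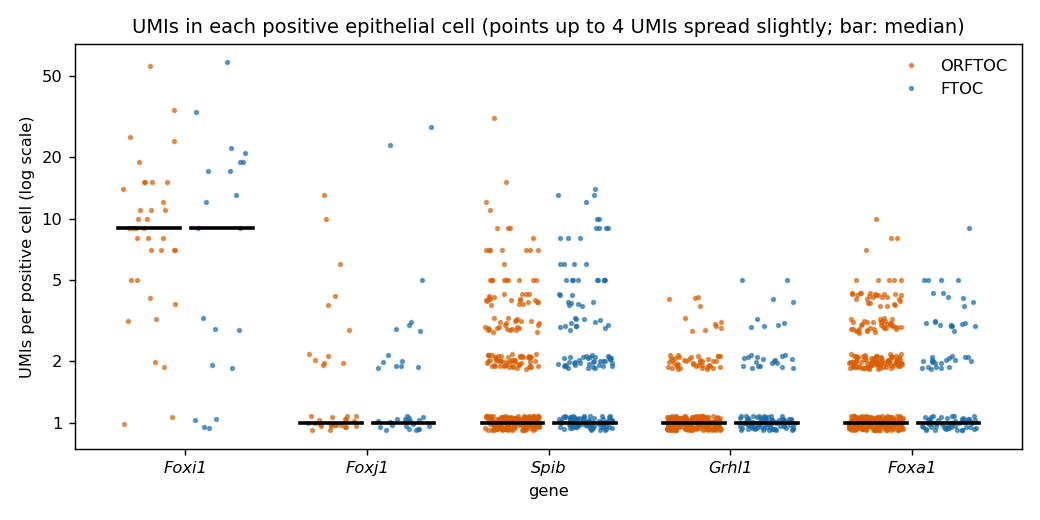
UMIs of each gene in every positive epithelial cell (log scale, y axis) by gene and pool (x axis); the bar is the median. Foxi1 cells held a median of 9 UMIs in both pools, whereas the other members had a median of 1.

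Foxj1, the factor of motile cilia, was found at 1 or a few UMIs in most positive cells and at a high level in a handful. It was detected in 35 ORFTOC cells (2.42%, interval 1.69 to 3.34) and in 34 FTOC cells (3.004%, 2.09 to 4.17), with 75 and 102 UMIs. The level was 3.78 CPM in ORFTOC and 7.25 CPM in FTOC, a ratio of 0.521 (0.382 to 0.709), although the shares of positive cells overlapped. In FTOC 56 of the 102 UMIs came from 3 cells, and in ORFTOC 29 of 75 came from 3 cells. Outside these 6 cells the level was 2.32 CPM in ORFTOC and 3.28 CPM in FTOC. After thinning, 0.862% of ORFTOC and 0.856% of FTOC cells were positive. The level in barcodes of at most 100 UMIs was 4.05 CPM, near the 5.22 CPM of epithelial cells, whereas immune cells held 0.330 CPM and no more than 1 UMI per cell.

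The 6 cells with at least 5 Foxj1 UMIs, a limit chosen after the values had been seen, were compared with a list of 12 ciliated cell genes. In FTOC the cell with 28 Foxj1 UMIs held 11 of the 12 genes, the cell with 23 held all 12, and the cell with 5 held 8. In ORFTOC the cell with 13 held 10 of the 12 genes, the cell with 10 held 11, and the cell with 6 held 0. Cells with most of the list were thus seen in both pools, and 1 high cell lacked it. The other 63 Foxj1-positive cells held 1 to 4 UMIs. Of these, 17 were Aire-positive, and none of the 17 held 3 or more of the list's genes. Of the 46 that were Aire-negative, 2 did. The list summed to 8434 CPM in the 6 high cells and to 28.1 CPM in the 43 cells with 1 Foxj1 UMI, against 23.8 CPM in the 2512 cells with none.

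Of the 12 ciliated genes, 7 were detected in at least 20 epithelial cells, and 6 of these had at least 2 times the share in Foxj1-positive cells (median ratio 5.69), against 11.5% of all genes (median 1.18). The exception was Ccno, a regulator of centriole amplification, with 7.25% of positive and 7.80% of negative cells. Dnah5, an outer dynein arm motor of the cilium, was detected in 10.1% and 0.119%, and Rsph1, a protein of the radial spokes, in 15.9% and 1.31%. The genes most like Foxj1 were Dynlrb2 (r = 0.62), a dynein light chain, Ccdc153 (r = 0.54), Tppp3 (r = 0.53), Rsph1 (r = 0.52), Cfap53 (r = 0.50), Arhgdig (r = 0.47), Mlf1 (r = 0.47) and Cfap70 (r = 0.46). Tppp3, Cfap53 and Cfap70 are, like Dynlrb2 and Rsph1, genes of cilia or their microtubules. The 8 genes were each detected in 5 to 11 of the 69 Foxj1-positive cells, so the likeness rests on few of them. Cluster 8, led by Psors1c2, Wfdc21, Calcb and Aire, had the largest share of positive cells (10.9%, interval 5.34 to 19.1), followed by cluster 12 (1 of 13 cells) and by cluster 1 (4.49%, 3.002 to 6.42), led by Rgs5, Aadac and Cxcl10. Cluster 2, led by Bpifa1 and Reg3g, held 4 of the 6 high cells and 41.2% of the UMIs. No Foxj1 UMI was found in the 331 cells of cluster 4. Like Foxi1, Foxj1 was among the genes used for clustering.

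Spib, the microfold factor, was found widely, and at its highest share in the cells of clusters 11 and 8. It was detected in 286 ORFTOC cells (19.7%, interval 17.7 to 21.9) and in 173 FTOC cells (15.3%, 13.2 to 17.5). The level was 31.9 CPM in ORFTOC and 31.1 CPM in FTOC, a ratio of 1.02 (0.906 to 1.16). At 3000 UMIs the shares were 6.82% (5.56 to 8.28) and 5.61% (4.30 to 7.18). The pools did not differ beyond counting error in level or at matched depth. The positive cells held a median of 1 UMI, and 51 of 459 held at least 5, with a maximum of 31 in ORFTOC and 14 in FTOC. The gene lies on chromosome 7 (44525995 to 44532087).

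The summed level of the microfold list was not higher in Spib-positive cells, whereas that of tuft genes was. Summed over its 9 genes, the microfold list stood at 1115 CPM in the 459 positive cells and at 1275 CPM in the 2122 negative cells. Gp2, the microfold receptor for bacteria, was detected in 11.3% of positive and 13.2% of negative cells. It was the only gene of the list with a lower share in positive cells. The chemokine Ccl20 was detected in 10 positive and 4 negative cells. Tnfrsf11b, the decoy receptor for RANKL, was detected in 14.2% and 3.63%, and the chemokine Ccl9 in 4.36% and 1.18%. Sox8, which works with Spib in microfold cells, was detected in 2.18% and 1.08%. Of 8 listed genes in at least 20 cells, 3 had at least 2 times the share in Spib-positive cells (median ratio 1.51), against 7.94% of all genes (median 1.22). The tuft list of 7 genes, among them the ion channel Trpm5 and the taste G protein Gnat3, summed to 495 CPM in positive and 64.9 CPM in negative cells. Of the 5 tuft genes in at least 20 cells 3 were past 2 times, with Trpm5 in 5.23% of positive and 0.330% of negative cells. At 3000 UMIs Trpm5 was detected in 10.4% and 0.437% and Gp2 in 9.09% and 10.05%. Of 7 genes of Aire-expressing medullary TECs, 5 were past 2 times, among them Aire itself, Cd40 (50.5% and 15.9%) and Tnfrsf11a, the receptor for RANKL (55.6% and 21.3%). Of 7 cortical TEC genes, 0 were.

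The genes most like Spib were Il4i1 (r = 0.42), an amino acid oxidase, the G protein subunit Gng13 (r = 0.39), Avil (r = 0.39) and Ly6g6f (r = 0.38). Next were Trpm5 (r = 0.37), the intestinal homeobox factor Cdx1 (r = 0.36), Gas7 (r = 0.35) and Rgs13 (r = 0.35), a regulator of G protein signalling. Gng13, Avil, Trpm5 and Rgs13 are known from tuft cells. The likeness to Gng13 was stronger in ORFTOC (r = 0.43) than in FTOC (r = 0.33), whereas the likeness to Cdx1 was 0.23 in ORFTOC and 0.53 in FTOC. By cluster, Spib was detected in 24 of 27 cells of cluster 11 (88.9%, interval 70.8 to 97.6), led by Gnat3 and Gng13, and in 68 of 92 cells of cluster 8 (73.9%, 63.7 to 82.5), led by Aire among others. These intervals overlap. Cluster 12, led by collagen genes, followed with 8 of 13 cells (61.5%, 31.6 to 86.1), then cluster 1 with 31.6% (27.9 to 35.4) and cluster 5, led by the cortical genes Tbata, Psmb11 and Prss16, with 17.6% (13.5 to 22.2). In cluster 9 a single cell of 43 was positive (2.33%). Of all epithelial cells, 21 of the 459 Spib-positive epithelial cells held a UMI of Pdgfra, a receptor of fibroblasts, against 46 of 2122 negative cells. Without cluster 12 and clusters 6, 7 and 10 the CPM ratio of Spib between pools was 1.09.

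**Figure D3:**
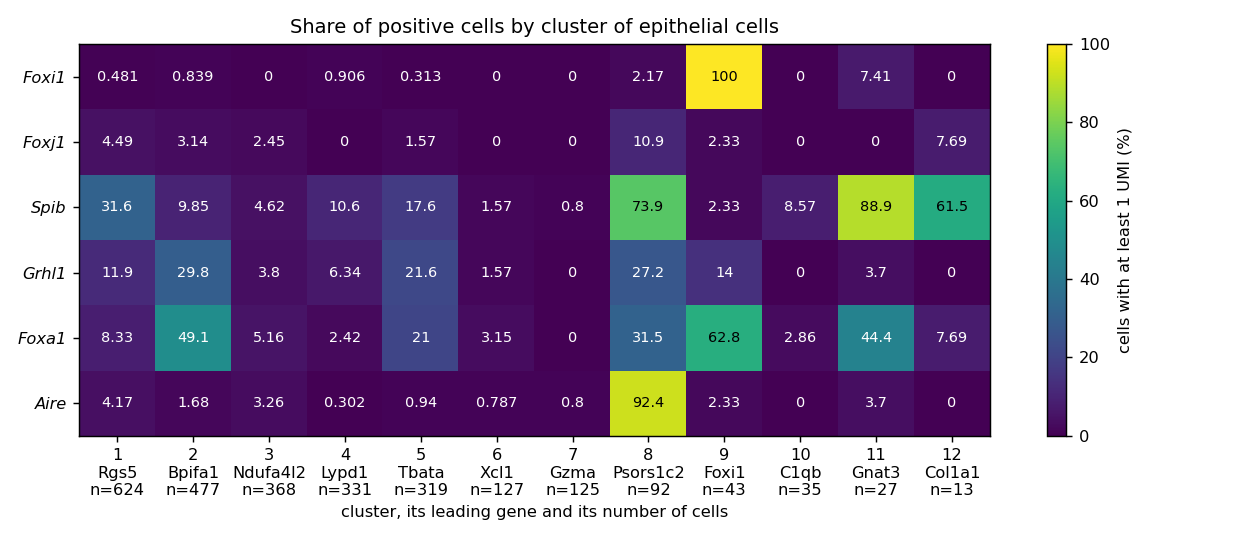
Share of cells with at least 1 UMI (percent, colour and printed value) of each member and of Aire (rows) in the 12 clusters of epithelial cells (columns, with the leading gene and the number of cells). Foxi1 fills cluster 9, Spib is highest in clusters 11 and 8, and Foxa1 in clusters 9, 2 and 11.

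Grhl1, the epidermal factor, was detected at low counts in many cells, more of them in ORFTOC. It was found in 241 ORFTOC cells (16.6%, interval 14.7 to 18.7) and in 113 FTOC cells (9.98%, 8.30 to 11.9). The level was 15.5 CPM in ORFTOC and 11.1 CPM in FTOC, a ratio of 1.40 (1.15 to 1.71). At 3000 UMIs the shares were 4.09% and 2.47%, a ratio of 1.66 (1.05 to 2.61). The difference was thus larger than counting error but under 2-fold, and at 6000 UMIs the interval of the ratio (1.36, 0.989 to 1.86) held 1. Of the 354 positive cells, 274 held 1 UMI, and the maximum was 5. The gene lies on chromosome 12 (24572232 to 24617391).

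Grhl1-positive cells were mixed in their keratinocyte genes. The list of 12 summed to 194 CPM in positive and 129 CPM in negative cells. Spink5, a protease inhibitor of the skin barrier, was detected in 11.9% of positive and 2.60% of negative cells, and Sbsn, a secreted protein of upper epidermis, in 19.8% and 7.95%. Dsg1a, a desmosomal cadherin, was detected in 4.52% and 1.80%, and the related factor Grhl3 in 9.32% and 4.54%. Krt1, Krt10, Lor and Krtdap, genes of epidermal differentiation, had ratios of 0.810 to 0.946, so their shares were not higher. At 3000 UMIs per cell, 83 cells remained Grhl1-positive, of which 3.61% held Spink5 (2.25% of negative cells), 9.64% Sbsn (3.09%), 4.82% Grhl3 (1.57%) and 0 Dsg1a, each from at most 8 cells. In all, 4 of 9 listed genes in at least 20 cells were past 2 times (median ratio 1.26), against 5.85% of all genes (median 1.18). The list of 7 cortical TEC genes summed to 9708 CPM in positive and 5977 CPM in negative cells, with 0 of 7 past 2 times. The genes most like Grhl1 followed it weakly, with r of 0.25 to 0.26, and among them were Anxa1, the desmosomal plaque protein Ppl, the tight junction protein Cldn4, Bpifa1, Clu, Serpinb11 and F3. By cluster the share was highest in cluster 2 (29.8%, interval 25.7 to 34.1), cluster 8 (27.2%, 18.4 to 37.4) and cluster 5 (21.6%, 17.2 to 26.6), and neighbours in this order had overlapping intervals. Within cluster 2 it was 31.4% in ORFTOC and 25.2% in FTOC, and in the cells outside cluster 2 it was 11.9% (10.02 to 13.9) and 8.13% (6.52 to 9.99).

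Foxa1, the endodermal factor, differed most between the pools. It was detected in 356 ORFTOC cells (24.6%, interval 22.4 to 26.9) and in 98 FTOC cells (8.66%, 7.08 to 10.4). The level was 32.8 CPM in ORFTOC and 12.9 CPM in FTOC, a ratio of 2.54 (2.15 to 3.01). At 3000 UMIs 10.3% (8.73 to 11.99) and 3.90% (2.81 to 5.26) of cells were positive. The ORFTOC share was higher at both depths by more than counting error, but with 1 sample per pool the spread between cultures is not known. Of the 454 positive cells, 208 held at least 2 UMIs and 14 at least 5, with a maximum of 10. The gene lies on chromosome 12 (57540628 to 57548029), next to Ttc6 on the other strand, whose annotation overlaps it. Ttc6 had 130 UMIs in 111 epithelial cells, of which 50 were Foxa1-positive. Whether the overlap affected the counts of either gene was not tested.

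The 250 bases before the start used by the RefSeq promoter table (minus strand) held 1 match to the forkhead letters TGTTTAC, written GTAAACA on this strand, 141 bases before that start. The 30 bases around it (chr12:57546235-57546264) are shown with the match in capitals, since Foxa1 is itself a forkhead factor and was found with Foxi1.
Foxa1: ttatactgctttGTAAACAaagtgagggcc
The window lies within the extent listed for the gene, which has a further start upstream. The match describes letters and not a bound site.

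Foxa1-positive cells carried genes of secretory airway epithelium. The list of 12 such genes summed to 39003 CPM in positive and 5669 CPM in negative cells, of which the abundant secreted protein gene Bpifa1 was detected in 68.9% and 32.0% of cells. Of the 10 listed genes in at least 20 cells, 9 had at least 2 times the share in positive cells (median ratio 5.56), against 9.46% of all genes (median 1.15). Spdef, a factor of goblet cells, was detected in 16.3% and 2.26%, the surfactant protein gene Sftpd in 34.4% and 6.72%, the mucin Muc5b in 7.49% and 1.18%, and the antibacterial lectin Reg3g in 32.2% and 11.1%. Wfdc2 was the exception, with 78.0% and 41.9%. At 3000 UMIs Bpifa1 was detected in 60.3% and 23.6%, Sftpd in 26.6% and 6.37% and Spdef in 5.43% and 1.90%. Of 5 tuft genes in at least 20 cells 4 were also past 2 times, among them the kinase gene Dclk1 with 44.3% and 11.9%. The club cell gene Scgb1a1 was detected in 1 positive and 5 negative cells. The genes most like Foxa1 were Anxa1 (r = 0.43), Wfdc2 (r = 0.42), Cyp2f2 (r = 0.40), Serpinb11 (r = 0.40), the immunoglobulin transporter Pigr (r = 0.39), Cldn7 (r = 0.39), Bpifa1 (r = 0.39) and Nupr1 (r = 0.39).

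By cluster, Foxa1 was detected in 62.8% of cluster 9 (interval 46.7 to 77.0), 49.1% of cluster 2 (44.5 to 53.6) and 44.4% of cluster 11 (25.5 to 64.7), 3 shares whose intervals overlap. Cluster 8 followed with 31.5% and cluster 5 with 21.0%. Cluster 2 held 55.6% of all Foxa1 UMIs, and 354 of its 477 cells were from ORFTOC (74.2%, 70.0 to 78.1). Within cluster 2 177 of 354 ORFTOC cells were positive (interval 44.7 to 55.3%) and 57 of 123 FTOC cells (46.3%, 37.3 to 55.6), which did not differ beyond counting error. Outside cluster 2 it was 16.3% in ORFTOC (14.2 to 18.7) and 4.06% in FTOC (2.93 to 5.47). In cluster 1 it was 14.6% of 314 ORFTOC cells and 1.94% of 310 FTOC cells, and in cluster 3, led by Ndufa4l2 and Igfbp2, 15.1% of 86 and 2.13% of 282. The gap between pools therefore lay both in the number of cluster 2 cells and in a larger share of positive cells in other clusters. Foxa1 was among the genes used for clustering, so the clusters are a description.

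**Figure D4:**
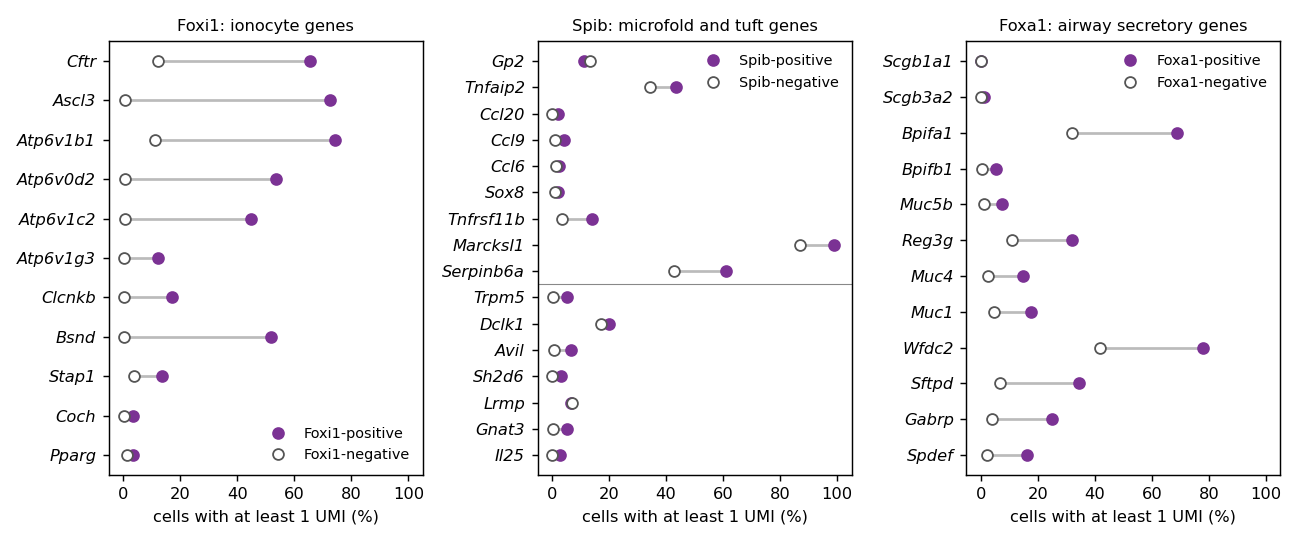
Share of cells with at least 1 UMI (percent, x axis) of each lineage gene (y axis) in cells positive (filled) and negative (open) for Foxi1, Spib or Foxa1, both pools together. Ionocyte genes such as Ascl3 (72.4% against 0.793%) separate Foxi1-positive cells. Microfold genes were mixed in Spib-positive cells, with Tnfrsf11b higher (14.2% against 3.63%) and Gp2 alone of the list lower (11.3% against 13.2%).

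With Aire, Spib and Foxj1 were found together far more often than by the share in Aire-negative cells. Foxi1 was found with Aire in 3 cells, too few to show an excess or a lack. Aire was detected in 139 epithelial cells, 62 in ORFTOC (4.28%) and 77 in FTOC (6.80%), with 20.3 and 47.0 CPM. Spib was detected in 84 of the 139 (60.4%, interval 51.8 to 68.6) and in 15.4% of the 2442 Aire-negative cells (13.9 to 16.8), a ratio of 3.94 (3.34 to 4.63). Foxj1 was detected in 17 of 139 (12.2%, 7.29 to 18.9) and in 2.13% (1.59 to 2.78), a ratio of 5.74 (3.41 to 9.66). Among all 14774 genes in at least 20 cells, 13.0% had a ratio of at least 2, as these 2 of the 5 members had. Aire-positive cells were deeper, with a median of 16806 UMIs against 12255.

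Depth therefore matters for these shares. At 3000 UMIs Spib was detected in 16 of 78 Aire-positive cells (20.5%) and in 5.84% of the others, a ratio of 3.52 (2.21 to 5.60), and 10.2% of all genes then had a ratio of at least 2. Foxj1 was left in 1 of 78 cells, too few to read. At 6000 UMIs Foxj1 was detected in 7 of 99 (7.07%) and in 1.02% of the others, a ratio of 6.93 (3.03 to 15.8). Both pools showed the Spib excess, with 37 of 62 Aire-positive cells in ORFTOC (59.7%, against 17.95% of Aire-negative cells) and 47 of 77 in FTOC (61.0%, against 11.9%). Foxj1 was in 5 of 62 in ORFTOC (8.06%, against 2.16%) and in 12 of 77 in FTOC (15.6%, against 2.09%).

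Foxa1 and Grhl1 were somewhat more frequent in Aire-positive cells with all UMIs, and at matched depth the intervals of both ratios held 1. Foxa1 was detected in 26.6% of Aire-positive and 17.1% of Aire-negative cells, a ratio of 1.56 (1.17 to 2.08), with 0.847 (0.359 to 2.001) at 3000 UMIs and 1.15 (0.668 to 1.98) at 6000 UMIs. Grhl1 was detected in 20.1% and 13.3%, a ratio of 1.51 (1.07 to 2.13). At 3000 UMIs the ratio of Grhl1 was 1.94 (0.810 to 4.67, 5 of 78 Aire-positive cells) and at 6000 UMIs it was 1.02 (0.489 to 2.11). Within FTOC the ratios with all UMIs were 3.30 (2.11 to 5.14) for Foxa1 and 2.77 (1.79 to 4.28) for Grhl1, and within ORFTOC they were 1.19 (0.799 to 1.78) and 0.868 (0.469 to 1.61). Among Aire-negative cells, Foxa1 was detected in 24.4% in ORFTOC and 7.49% in FTOC, and Grhl1 in 16.7% and 8.91%. In cluster 8, which held most Aire-positive cells, Grhl1 was detected in 5 of 37 ORFTOC cells (13.5%, 4.54 to 28.8) and in 20 of 55 FTOC cells (36.4%, 23.8 to 50.4), and these intervals overlap. Foxi1 was detected in 3 of 139 Aire-positive cells (2.16%) and in 2.25% of the others, a ratio of 0.958 (0.304 to 3.02). All 3 were in FTOC, where the ratio was 2.28 (0.688 to 7.58). In ORFTOC, 0 of 62 allows a share of cells with a UMI of up to 4.84% (3 of the total).

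**Figure D5:**
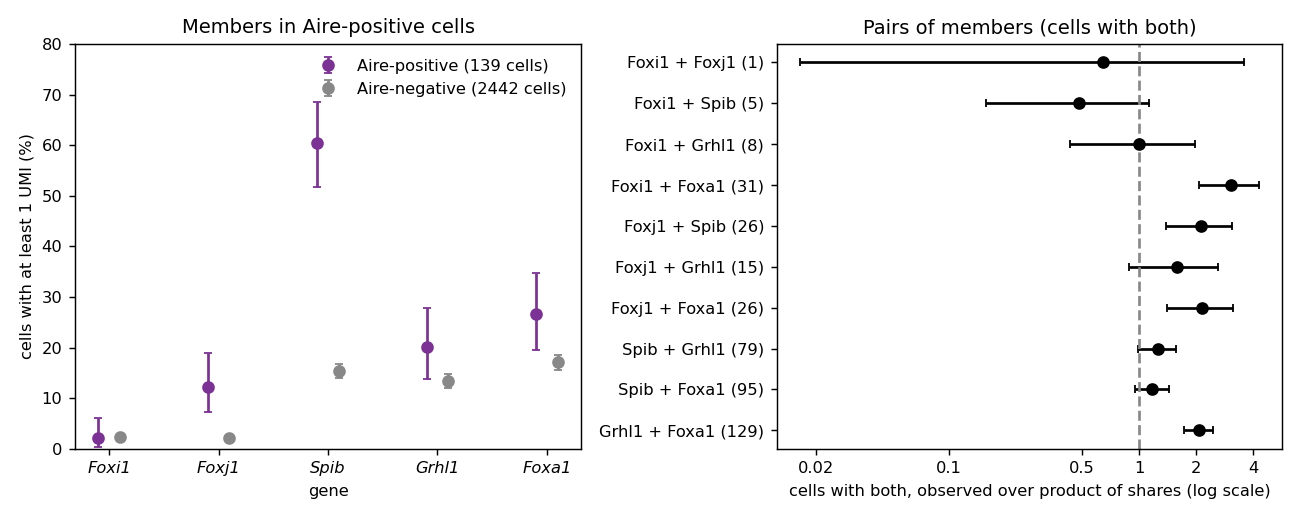
Left, share of Aire-positive and Aire-negative epithelial cells (percent, y axis) with at least 1 UMI of each member (x axis). Right, for each pair of members (number of cells with both in brackets), that number divided by the product of the shares (log scale), where 1 marks the product; bars are 95% intervals. Spib reached 60.4% of Aire-positive cells, and Foxi1 with Foxa1 reached 3.04 times the product.

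Members were found together in 303 of 2581 cells, of which 253 held 2 members, 46 held 3, 4 held 4 and 0 held all 5. The pair furthest above the product of its shares was Foxi1 with Foxa1, found in 31 cells where the product gave 10.2, a ratio of 3.04 (2.06 to 4.31). Of the Foxi1-positive cells, 53.4% held Foxa1, 62.2% in ORFTOC and 38.1% in FTOC. Thinned to 3000 UMIs, 15 of 48 Foxi1-positive cells still held Foxa1, where the product gave 3.62. The pair was thus also above the product at matched depth. Within cluster 9 Foxa1 was detected in 19 of 28 ORFTOC cells and in 8 of 15 FTOC cells.

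Grhl1 and Foxa1 were found together in 129 cells where the product gave 62.3 (ratio 2.07, 1.73 to 2.46), and at 3000 UMIs in 17 where it gave 6.25 (2.72, 1.58 to 4.35). Foxj1 was found with Spib in 26 cells and with Foxa1 in 26 cells, where the products gave 12.3 and 12.1. The excess with Spib was 1 cell against a product of 1.32 at 3000 UMIs, and 8 against 3.29 at 6000 UMIs. With Foxa1, Foxj1 was found in 2 cells against a product of 1.58 at 3000 UMIs and in 5 against 3.07 at 6000 UMIs (1.63, 0.528 to 3.796), so no excess beyond counting error was seen at matched depth. With all UMIs the ratio of this pair was 1.63 (0.890 to 2.73) in ORFTOC and 4.08 (2.11 to 7.12) in FTOC. Spib with Foxa1 (95 cells, product 80.7) and Spib with Grhl1 (79 cells, product 63.0) did not differ from the product beyond counting error, although within FTOC Spib with Grhl1 did (32 cells, product 17.3, ratio 1.85, 1.27 to 2.62). Foxi1 was rarely found with Spib (5 cells, product 10.3, ratio 0.485, 0.157 to 1.13) or with Foxj1 (1 cell, product 1.55), although these intervals hold 1. Foxi1 with Grhl1 was found in 8 cells where the product gave 7.96. In all, 8 of the 10 pairs were found in more cells than the product gave, but this number was 5 at either thinned depth, and cells positive for a member were deeper, with medians of 13106 to 16280 UMIs against 11933.5 to 12369 in cells negative for it.

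Ptprc was detected less often in member-positive cells than in the cells negative for each member. The negative cells included most of clusters 6, 7 and 10, which were led by lymphocyte or macrophage genes. Ptprc was detected in 8.62% of Foxi1-positive, 4.35% of Foxj1-positive, 8.06% of Spib-positive, 5.93% of Grhl1-positive and 8.15% of Foxa1-positive cells, against 14.7 to 15.9% of the cells negative for each. Within clusters 1 to 5 Ptprc was detected in 4.83 to 6.58% of cells, below the Foxi1-, Spib- and Foxa1-positive shares. A T cell receptor β chain shared the barcode of 1.32 to 3.45% of positive cells. Without the Ptprc-positive cells, Spib was detected in 56.9% of Aire-positive and 16.9% of Aire-negative cells, and Foxi1 with Foxa1 in 28 cells where the product gave 10.02.

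Of the 45 other regulators of mimetic or related epithelial lineages that were listed, 32 were detected in at least 20 epithelial cells, 9 in fewer, and Hnf4a, Ptf1a, Pdx1 and Nkx2-5 had no UMI. Among those found in the largest share were the early response gene Egr1 (88.1%), Sox9 (67.7%), the basal cell factor Trp63 (54.9%), Elf3 (42.7%) and Klf4 (37.5%). Between pools, 36 had at least 20 UMIs. Of these 36, 5 were at least 2-fold higher and 6 at least 2-fold lower in ORFTOC, against 5.92% and 6.30% of all 15409 genes. The median ratio was 1.01 against 0.992 over all genes. The goblet cell factor Spdef, as Foxa1, was higher in ORFTOC, with a CPM ratio of 2.70 (2.04 to 3.62), as was the epithelial Ets factor Ehf with 2.11 (1.95 to 2.29). The related forkhead gene Foxa3 had a ratio of 2.41 (1.16 to 5.47) and the lung and thyroid factor Nkx2-1 of 4.73 (1.40 to 24.8), each from few cells, and Spi1, a leading gene of cluster 10, of 18.5. Among those lower in ORFTOC were Insm1 (0.299, 0.256 to 0.350), Ccno (0.459, 0.377 to 0.558) and Trp73 (0.489, 0.333 to 0.714). Gfi1b (0.412, 0.217 to 0.759) and Neurod1 (0.118, 0.0223 to 0.405) were lower from 22 and 3 positive cells. The share of cells with Gfi1b was not lower, with 0.897% in ORFTOC and 0.795% in FTOC. The ionocyte regulators Ascl3 and Foxi2 had ratios of 0.94997 (0.804 to 1.12) and 1.31 (1.08 to 1.58), and Foxi2 was found in 43 of the 58 Foxi1-positive cells and in 1 other cell. The tuft factor Pou2f3 had a ratio of 1.11 (0.761 to 1.63).

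In Aire-positive cells, 7 of the 32 regulators had a share at least 2 times that in Aire-negative cells, against 13.0% of all genes, and the median ratio was 0.967 against 1.12. Insm1, a factor of neuroendocrine cells, was detected in 51.8% of Aire-positive and 0.737% of Aire-negative cells. Gfi1b was detected in 8.63% and 0.409%, Hnf4g in 6.47% and 0.696%, the muscle factor Myog in 5.04% and 0.573%, Ovol1 in 13.7% and 3.40% and Myb in 18.7% and 8.97%. Of the 5 members, Spib was also found in 375 cells without Aire and Foxj1 in 52. Aire itself had a CPM ratio of 0.432 (0.381 to 0.490).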

How the data were processed

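The authors processed reads with Cell Ranger 6.1.2 on mm10 and analysed them in Seurat 4.2.0, per the labels. The header of the deposited matrix names an earlier major version of Cell Ranger, and whether the counts depend on it was not tested. The deposited values used were unfiltered counts of UMIs per gene and barcode, hashtag counts included, and the counts of UMIs behind each filtered T cell receptor contig.

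Barcodes with at least 600 genes and 0.4 to 10% mitochondrial UMIs were kept (10245). HTODemux (Seurat 5.3.0, R 4.3.3, positive quantile 0.99) called 8983 single cells, 590 doublets between pools and 672 negative. Another 591 single cells with the most such doublets among their 50 nearest neighbours were removed, since doublets within a pool carry 1 hashtag. HTO_1 marked FTOC and HTO_2 ORFTOC, per the labels. Clusters came from SCTransform (sctransform 0.4.2) with 18 principal components and a resolution of 0.4. They were called by number and by their 10 leading genes, ranked by fold in CPM with a pseudocount of 10.

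A cell was positive with 1 UMI. Shares carry Clopper-Pearson intervals, CPM exact Poisson intervals, CPM ratios exact conditional binomial intervals (a count under 3 set to 3) and ratios of shares intervals on the log scale. Ratios across all genes used a limit of 2-fold, among genes with at least 20 UMIs (pools) or detected in at least 20 cells (Aire, members). The rule for ratios across all genes was tested on simulated counts, and the totals of thinned cells were checked. The intervals were not tested in this way. The pools have no replicates, so no test was made. Likeness is Pearson's r of log1p(UMIs per 10000) over epithelial cells, among genes in at least 20 cells, and the 8 highest per member were taken. Positions and the sequences before gene starts came from RefSeq (GRCm38.p6). Python 3.11.15, numpy 2.4.6, scipy 1.17.1, pandas 2.3.3 and scikit-learn 1.9.0 were used.

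The members, the marker lists and the list of other regulators were chosen with earlier results of these data known. The limit of 5 UMIs for high Foxj1 cells was set after seeing the data. Named were the 5 members and Aire, the genes of the lineage list of each member, the 8 genes most like it, and, of the other regulators, the 6 with the largest share and those whose share with Aire is given. The regulators named for their difference between pools, the tuft genes beside Spib and the leading genes of clusters were picked with their values in view. Some genes that these rules select are not reported here.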

Additional observations from a re-analysis of the deposited data

Results flagged for a closer look

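Spib was detected outside the epithelial cells, in a population that no comparison above used. Among 266 cells with a Pdgfra UMI and no UMI of Epcam or Ptprc, 74 held Spib (27.8%, interval 22.5 to 33.6), against 0.361% of immune cells. The share was 26.1% of 211 cells in ORFTOC and 34.5% of 55 cells in FTOC, and 37 of the 74 positive cells held at least 2 UMIs. The level was 22.6 CPM, above the 8.11 CPM of barcodes with at most 100 UMIs, and at 3000 UMIs 9.13% of cells were positive. Foxi1, Foxj1, Grhl1 and Foxa1 had 0 UMIs in the 266 cells, which allows a share of cells with a UMI of up to 1.13% each (3 counts of the total). Of the Spib-positive cells 100% held Col1a1 and 87.8% Pdgfrb, against 99.5% and 79.2% of the Spib-negative ones, and the epithelial keratin Krt8 was in 4.05% and 4.69%. Siglech and Ms4a1, markers of the plasmacytoid dendritic and B cells that use Spib, were at 0 in the 266 cells, Cd79a and Cd79b were each in 0.376%, and Bst2, Irf8 and Tcf4, which many cell types express, were in 55.6 to 98.1%.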

How the results depend on the processing

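No paired analysis was possible because each pool was a single mixed sample, and for the same reason no replicate could be left out. The alternatives were other Epcam, Ptprc, gene, hashtag, doublet and UMI limits, thinning to 3000 or 6000 UMIs, and, chosen after seeing the data, leaving out clusters 6, 7, 10 and 12. The ORFTOC over FTOC ratio of shares stayed within its main interval under all of these for all 5 members, as did that of CPM under those run for it, which leave out the UMI limit and thinning. The CPM ratio of Foxj1 was 0.498, past 2-fold, with doublets within a pool kept. The Aire ratio of Foxa1 was 0.847 at 3000 UMIs, the other side of 1, and 1.15 at 6000. That of Grhl1 was 1.94 at 3000 and 1.02 at 6000 UMIs, from 5 and 7 cells, that of Foxj1 1.52 at 3000, and that of Spib 4.64 at 6000 and 7.54 with at least 2 UMIs called positive. The number of 10 pairs above the product of shares was 5 at 3000 and 5 at 6000 UMIs, against 8. Foxj1 with Spib was at 0.755 of the product at 3000 UMIs, from 1 cell. Thinning leaves few cells with a low gene, which limits these values.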
